A study of Homo sapiens with 6 samples.

Results

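RNA of the human lung adenocarcinoma line A549 was compared in a single contrast across all 6 libraries of the study: the mean of the 2 altered groups against the WT group. The 3 groups had 2 libraries each, and all of them carried lentivirus and were grown in RPMI medium with 10% serum. WT cells received HOXB9, T133A cells received HOXB9 with a threonine replaced by alanine (the T133A change), and KO cells were labelled as a HOXB9 knockout. No group with an empty vector or without virus was among the 6 libraries, and the labels say neither whether the lines were clones nor whether WT and T133A cells kept their own HOXB9. Nor do they call a group's libraries separate cultures, so the spread behind the p-values is that of these samples and may be technical. A gene was counted as shifted jointly when edgeR's quasi-likelihood test called it (Benjamini-Hochberg adjusted p under 0.05 over all genes) in the mean of T133A and KO with WT, in T133A with WT and in KO with WT, with the same sign in all 3. Of 16340 genes tested, 911 met this rule. T133A and KO were set against the same 2 WT libraries, so a deviation of a WT library moves both differences the same way.

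HOXB9 is a homeobox transcription factor of the posterior HOX paralogue groups, which bind AT-rich DNA, often beside partner homeodomain proteins of the PBX and MEIS families. In tumours it has been linked to invasion, to secreted growth and angiogenic factors and to the balance between epithelial and mesenchymal states. The hydroxyl group of threonine can carry a phosphate, and alanine has no hydroxyl group.

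The HOXB9 transcript stood at 223 and 217 CPM in WT, 275 and 210.3 CPM in T133A, and 14.5 and 15.4 CPM in KO, where CPM is the count scaled to a common library size after TMM normalization. KO was apart from the other 2 groups, and T133A and WT overlapped. Total counts ran from 16299059 to 18745432 per library, and the 2 libraries of a group differed by more than sampling noise, with a chi-square per degree of freedom of 2.45 for WT, 10.1 for T133A and 12.2 for KO. Genes of the mitochondrial genome took 7.84% to 7.87% of the counts in WT, 8.51% to 8.91% in T133A and 4.45% to 5.6% in KO. Of the 6 epithelial markers of the line, all 6 were tested, with a summed level of 7899 to 10085 CPM per library.

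The mean of the 2 altered groups differed from WT for 5230 genes, which is 32% of those tested, with 2572 higher (15.7%) and 2658 lower (16.3%). Most of these were carried by KO. Among the 2572 higher, 442 passed in both altered groups, 1927 passed in KO and not in T133A, 144 passed in T133A and not in KO, and 40 passed in neither alone. Among the 2658 lower, 469 passed in both, 1949 in KO and not in T133A, 82 in T133A and not in KO, and 86 in neither alone. The remaining calls in the mean were genes called in opposite directions in T133A and KO, which are described near the end. Taken singly, T133A with WT gave 1560 calls (9.55%), of which 912 (5.58%) were higher and 648 (3.97%) lower. KO with WT gave 7622 (46.6%), with 3862 (23.6%) higher and 3760 (23%) lower. T133A with KO gave 6523 (39.9%), with 3322 (20.3%) higher in T133A and 3201 (19.6%) lower. The 911 genes of the joint shift were 58.4% of the calls of T133A with WT and 11.95% of those of KO with WT. A call in the mean alone does not show a change in T133A, and the genes described next passed in both groups.

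The jointly shifted genes, 5.58% of those tested, were 442 that rose (2.71%) and 469 that fell (2.87%). Of the risers 418 were protein coding, and of the fallers 444. All 4 altered libraries stood above both WT libraries in 441 of the 442 risers and below both in all 469 fallers. Of all genes tested, 16.5% and 16.4% had such an order. The rule that chose the members made this order all but certain, so it is no separate support. The median rise was 0.66 on the log2 scale in T133A and 0.89 in KO. The median fall was -0.66 in T133A and -1.29 in KO. Both differences reached at least 1 on the log2 scale in 102 risers and 112 fallers. RASGRF2 was the gene nearest to the threshold among the members and NCAM1 the nearest outside it, with adjusted p in T133A with WT of 0.0498 and 0.0501. With library size alone in place of TMM scaling the members were 312 risers and 572 fallers, so the share that rose went from 48.5% to 35.3%. Both counts fell when either WT library was left out, which leaves only a single library in that group. Whether the fall came from the WT libraries themselves or from their smaller number was not tested. Without T133A replicate 2 the counts went the other way, to 850 and 732. The members also differed in base composition, which was 52.7% GC (median) in risers, 43.4% in fallers and 48.4% in all genes tested, and across genes GC content correlated with the difference between the 2 T133A libraries (Spearman's rho 0.52). After a correction for GC content and length 831 of the 911 remained, among 796 risers and 661 fallers.

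**Figure D1:**
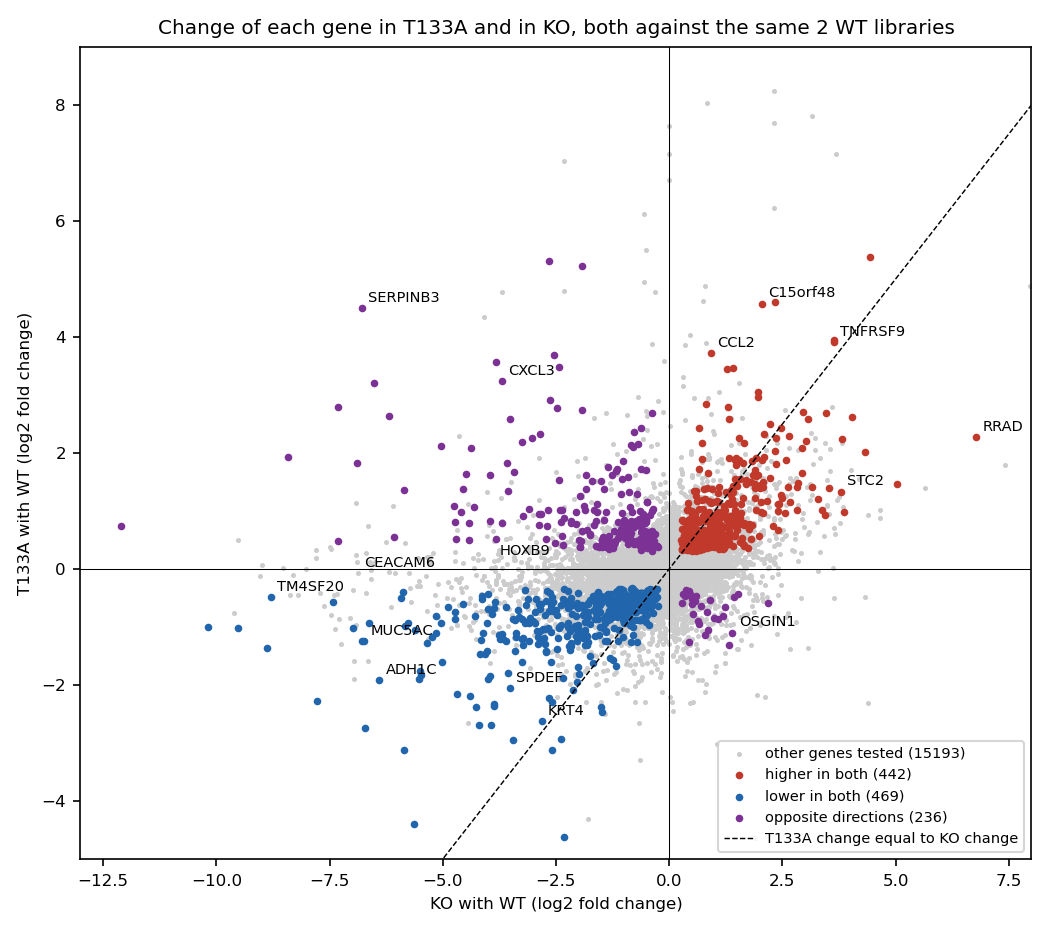
Log2 fold change of KO with WT (horizontal) and of T133A with WT (vertical) for each gene tested, with jointly shifted genes and genes called in opposite directions marked. The 442 risers and 469 fallers lie in the upper right and lower left, and 207 genes higher in T133A and lower in KO lie in the upper left. Both axes share the WT libraries.

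The risers with the largest changes common to both altered groups included genes of cytokine signalling and of the cell membrane. TNFRSF9 encodes 4-1BB, a costimulatory receptor of the tumour necrosis factor receptor family (chromosome 1, 7915894 to 7943165, reverse strand, GRCh38). Its level was 0.701 and 0.223 CPM in WT, 7.53 and 6.47 CPM in T133A, and 5.52 and 5.97 CPM in KO. All 4 altered libraries were above both WT libraries, and T133A and KO lay close together. By edgeR's quasi-likelihood test TNFRSF9 rose by 3.92 (SE 0.346, adjusted p = 2.83e-08) in T133A and by 3.63 (SE 0.352, adjusted p = 1.84e-08) in KO on the log2 scale. ADAM19, a membrane metalloprotease (chromosome 5, 157395534 to 157575775, reverse strand), stood at 3.51 and 4.02 CPM in WT, 22.7 and 22.5 CPM in T133A, and 29.1 and 34 CPM in KO. The 3 groups did not overlap, and KO was highest. ADAM19 rose by 2.58 (SE 0.17, adjusted p = 1.62e-10) in T133A and by 3.07 (SE 0.168, adjusted p = 1.09e-12) in KO by the same test. IL11, a cytokine of the interleukin-6 family (chromosome 19, 55364389 to 55370463, reverse strand), was measured at 1.23 and 1.62 CPM in WT, 6.73 and 7.35 CPM in T133A, and 11.3 and 6.62 CPM in KO. Both WT libraries were lowest, and the altered groups overlapped. IL11 rose by 2.30 (SE 0.289, adjusted p = 6.96e-06) in T133A and by 2.64 (SE 0.284, adjusted p = 9.25e-08) in KO by edgeR's quasi-likelihood test.

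ABLIM3, an actin-binding LIM protein (chromosome 5, 149141483 to 149260542, forward strand), was at 1.29 and 1.67 CPM in WT, 10.4 and 8.88 CPM in T133A, and 17.3 and 15.8 CPM in KO. WT was low, T133A intermediate and KO high. MARCHF4, a membrane-bound ubiquitin ligase, stood at 0.935 and 0.948 CPM in WT, 6.32 and 5.29 CPM in T133A, and 19.5 and 11.7 CPM in KO, in the same order, with the KO pair wide apart. LYPD1, a Ly6-type membrane protein, was at 0.818 and 0.446 CPM in WT, 2.13 and 3 CPM in T133A, and 12.4 and 13.2 CPM in KO, where T133A made 46.5% of the KO change. These 3 genes differed between T133A and KO by -0.78, -1.42 and -2.32 on the log2 scale, with adjusted p of 9.56e-04, 1.99e-05 and 4.57e-08 by edgeR's quasi-likelihood test. PEAR1, a platelet endothelial receptor of the EGF-repeat family, was at 0.175 and 0.669 CPM in WT, 1.84 and 2.23 CPM in T133A, and 6.8 and 5.38 CPM in KO, again lowest in WT. CA8, which encodes a carbonic anhydrase-related protein, reached nearly the same level in both groups, 29.7 ± 1.38 CPM in T133A and 30.6 ± 4.66 CPM in KO (mean ± SD, n = 2) from 5.49 ± 0.667 CPM in WT.

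**Figure D2:**
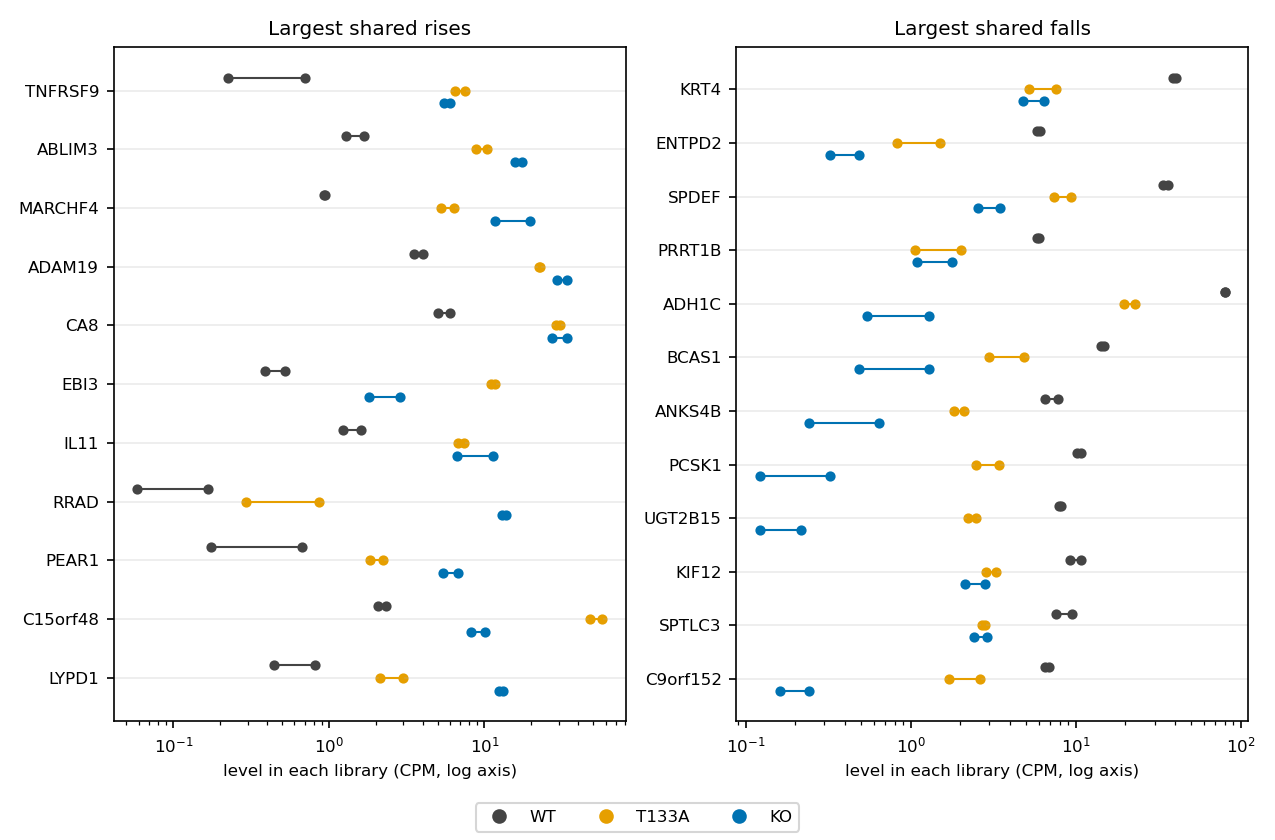
CPM per library on a log axis for protein-coding genes among those with the largest rises and falls common to T133A and KO, 1 point per library. In each riser drawn the 4 altered libraries stand above both WT libraries, and in each faller below them, which the choice of genes required.

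The fallers with the largest common changes included a keratin, a goblet cell factor and metabolic enzymes. KRT4, a keratin of stratified epithelia (chromosome 12, 52806549 to 52814551, reverse strand), was at 38.8 and 40.3 CPM in WT, 7.59 and 5.23 CPM in T133A, and 4.8 and 6.4 CPM in KO. The altered groups overlapped far below WT. KRT4 changed by -2.62 (SE 0.176, adjusted p = 2.14e-10) in T133A and -2.81 (SE 0.178, adjusted p = 1.49e-11) in KO by edgeR's quasi-likelihood test, and T133A and KO differed by 0.19 (SE 0.201), which did not pass. SPDEF, an ETS factor that directs goblet cell differentiation (chromosome 6, 34537802 to 34556333, reverse strand), stood at 33.7 and 36.2 CPM in WT, 9.37 and 7.41 CPM in T133A, and 2.55 and 3.5 CPM in KO. Here the groups were in 3 separate steps, with T133A between WT and KO. SPDEF changed by -2.06 (SE 0.164, adjusted p = 4.86e-09) in T133A and -3.52 (SE 0.187, adjusted p = 6.31e-13) in KO by the same test. ADH1C, a class I alcohol dehydrogenase (chromosome 4, 99336492 to 99353027, reverse strand), was at 79.7 and 80.1 CPM in WT, 22.9 and 19.6 CPM in T133A, and 0.546 and 1.29 CPM in KO. The groups did not overlap, with changes of -1.91 in T133A and -6.40 in KO. The other class I enzymes are similar in sequence, so reads may have been split or dropped among them.

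PCSK1, the prohormone convertase of endocrine secretory granules, was at 10.2 and 10.8 CPM in WT, 2.47 and 3.41 CPM in T133A, and 0.121 and 0.323 CPM in KO. BCAS1, a gene of oligodendrocytes and goblet cells, was at 14.2 and 14.9 CPM in WT, 4.83 and 3 CPM in T133A, and 0.486 and 1.29 CPM in KO. ENTPD2, an ectonucleotidase that breaks down extracellular ATP, was at 6.08 and 5.86 CPM in WT, 1.49 and 0.823 CPM in T133A, and 0.486 and 0.323 CPM in KO. In all 3 the T133A libraries lay between WT and KO without overlap, and T133A differed from KO by 3.65, 2.10 and 1.52 (adjusted p = 3.75e-07, 3.61e-05 and 0.0122 by edgeR's quasi-likelihood test). ANKS4B, an adaptor of brush-border microvilli, and C9orf152 had the same order. KIF12, a kinesin, and SPTLC3, a subunit of serine palmitoyltransferase, fell without a difference between T133A and KO that passed. KIF12 was at 10.7 and 9.2 CPM in WT, 2.87 and 3.29 CPM in T133A, and 2.12 and 2.8 CPM in KO. SPTLC3 was at 9.47 and 7.64 CPM in WT, 2.7 and 2.82 CPM in T133A, and 2.91 and 2.42 CPM in KO, and its altered groups overlapped. PRRT1B, a membrane protein, also overlapped between T133A and KO. UGT2B15, a steroid glucuronosyltransferase, was at 8.18 and 7.86 CPM in WT, 2.47 and 2.23 CPM in T133A, and 0.121 and 0.215 CPM in KO, with the reserve that it has near-identical paralogues.

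Among long noncoding RNAs, 12 rose and 14 fell jointly. LINC00941 was at 1.93 and 1.28 CPM in WT, 4.25 and 4.88 CPM in T133A, and 7.71 and 5.81 CPM in KO, and LINC00284 at 9.18 and 8.92 CPM in WT, 3.74 and 4.64 CPM in T133A, and 0.911 and 0.807 CPM in KO. In both the altered libraries were all on 1 side of WT. NKILA, a noncoding RNA named for its interaction with NF-kB (chromosome 20, 57710183 to 57712780, forward strand), stood at 1.75 and 2.12 CPM in WT, 7.7 and 6.59 CPM in T133A, and 5.04 and 5.65 CPM in KO, higher in all 4 altered libraries. It rose by 1.88 (SE 0.245, adjusted p = 1.02e-05) in T133A and 1.46 (SE 0.25, adjusted p = 5.37e-05) in KO by edgeR's quasi-likelihood test. The strand setting of the counting is not given in the sources used here, and NKILA overlaps PMEPA1 (chromosome 20, 57648392 to 57711536, reverse strand), which also rose jointly, so reads of both cannot be told apart. AC027117.1 and AC027117.2 fell, by -1.14 and -1.60 in T133A and by -3.76 and -3.25 in KO.

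The members differed in how far T133A went toward KO. For each gene the T133A change was expressed as a percent of the KO change, so 100% means that T133A reached the KO level. The median over the 442 risers was 79.4% (quartiles 56.4% to 111%) and over the 469 fallers 56.2% (35.1% to 90.0%), or 56.8% with the 4 fallers at 0 counts in KO set to their bound. Without T133A replicate 2 this order was reversed, with medians of 74.96% for risers and 77.4% for fallers. Those medians are over members called anew in that fit, a different set of genes. These members had to pass in T133A, which removes genes that T133A left near WT. Over all 2490 genes called in KO with WT with a change of at least 1 (log2), the median was 19.01%, with 28.95% for the 757 that rose and 15.7% for the 1733 that fell. Of those 757 and 1733 genes, 187 and 297 were in the joint shift. Set against separate WT libraries, so that T133A and KO shared none, the median was 15.6% in one assignment and 14.2% in the other.

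**Figure D3:**
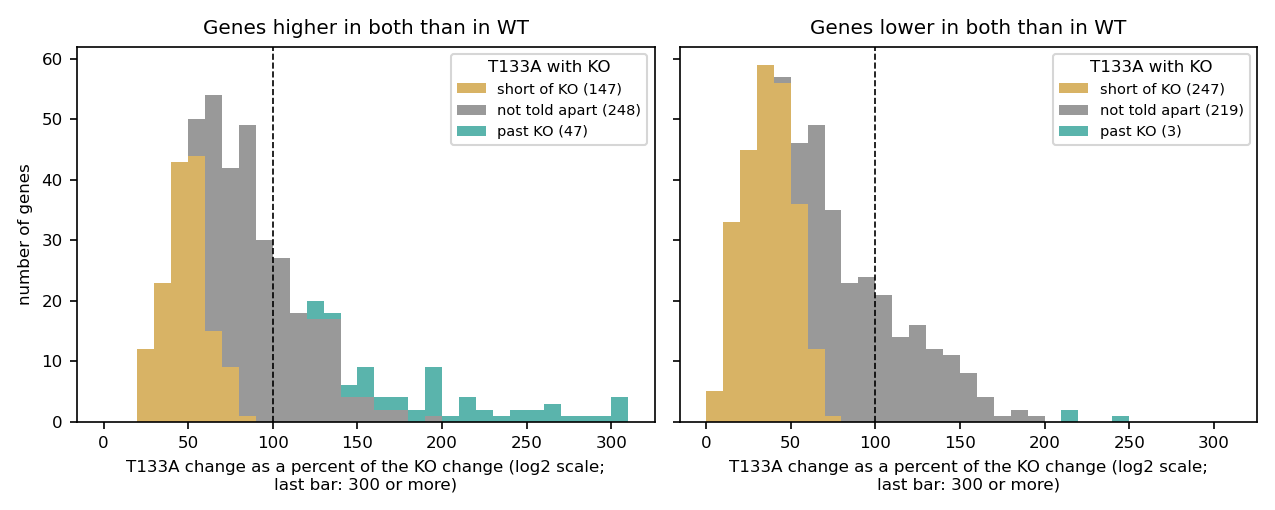
Number of genes by the T133A change as a percent of the KO change, for the 442 jointly shifted risers (left) and the 469 fallers (right), with colours for the direct test of T133A with KO and a dashed line at 100%. The medians are 79.4% for risers and 56.2% for fallers, and 47 risers but 3 fallers are coloured as past KO.

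A direct test of T133A with KO, which uses no WT library in its contrast, split the members into 3 classes. Of the 442 risers 147 stopped short of KO (median 49.3% of the KO change), 47 went past it (198%) and 248 were not told apart from it (89.3%). Of the 469 fallers 247 stopped short (36.0%), 3 went past (216%) and 219 were not told apart (91.6%). The share that stopped short was 33.3% among risers and 52.7% among fallers, where 39.9% of all genes tested differed between T133A and KO in either direction. Counts of the classes moved with the libraries. Without WT replicate 1 the risers were 60 short, 30 past and 101 not told apart, and the fallers 145, 0 and 79. Without WT replicate 2 they were 62, 31 and 111, and 161, 0 and 117. Without T133A replicate 1 they were 96, 42 and 200, and 199, 9 and 136. Without T133A replicate 2 they were 272, 59 and 519, and 262, 19 and 451. Without KO replicate 2 they were 142, 31 and 256, and 272, 2 and 229.

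The risers described here were chosen for the smallest differences between T133A and KO, among members passing the filters given in the next paragraph. Their closeness to the KO level follows from that choice and is no separate evidence that T133A reached it. AKR1B1, an aldose reductase (chromosome 7, 134442350 to 134459284, reverse strand), was at 643 and 641 CPM in WT, 1753 and 1565 CPM in T133A, and 1629.6 and 1681 CPM in KO. All 4 altered libraries stood well above WT and overlapped each other. Its T133A with KO difference was 0.00 on the log2 scale (SE 0.105), and T133A made 100.2% (SE 7.67) of the KO change. GFPT2, an enzyme that feeds the hexosamine pathway, was at 35.5 and 36.8 CPM in WT, 145 and 126 CPM in T133A, and 129 and 142 CPM in KO, with a difference between T133A and KO of -0.00 (SE 0.107). SDC4, the heparan sulfate proteoglycan syndecan-4, was at 22.7 and 22.8 CPM in WT, 67.5 and 54.6 CPM in T133A, and 61.1 and 60.1 CPM in KO. PDGFB, a platelet-derived growth factor chain, was at 1.75 and 1.95 CPM in WT, 5.58 and 4.47 CPM in T133A, and 6.56 and 3.77 CPM in KO. In each of these genes the altered groups overlapped, and the standard errors bound how alike the 2 levels can be called: for PDGFB the difference was -0.03 (SE 0.258).

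Among protein-coding members that reached 5 CPM and changed by at least 1 (log2) in both T133A and KO, the 5 that went furthest past KO included 2 cytokine genes, EBI3 and IL32. C15orf48, a small mitochondrial protein induced in inflammation (chromosome 15, 45430529 to 45448761, forward strand), was at 2.34 and 2.06 CPM in WT, 57.2 and 47.9 CPM in T133A, and 8.13 and 10.01 CPM in KO. The 3 groups did not overlap, T133A being highest. C15orf48 differed between T133A and KO by 2.53 (SE 0.155, adjusted p = 7.46e-12) by edgeR's quasi-likelihood test. EBI3, a chain shared by heterodimeric cytokines of the interleukin-12 family, was at 0.526 and 0.39 CPM in WT, 11 and 11.7 CPM in T133A, and 1.82 and 2.85 CPM in KO, in the same order. IL32, a proinflammatory cytokine, was at 1.52 and 1.73 CPM in WT, 19.9 and 15.7 CPM in T133A, and 4.31 and 3.61 CPM in KO. The T133A changes were 196% (EBI3) and 270.4% (IL32) of the KO changes. NPHS1, which encodes nephrin, also belonged here, but its joint call was lost without WT replicate 2 (largest adjusted p = 0.147) and without KO replicate 2 (0.751) by edgeR's quasi-likelihood test.

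By the same choice, the 5 members that stopped furthest short of KO included 2 mucins, MUC5AC and MUC5B. MUC5AC, a gel-forming airway and gastric mucin (chromosome 11, 1157953 to 1201138, forward strand), was at 1394 and 1282 CPM in WT, 597 and 532 CPM in T133A, and 12.3 and 12.8 CPM in KO. T133A lay below WT, and both KO libraries lay far below T133A. MUC5AC changed by -1.24 (SE 0.105, adjusted p = 1.31e-08) in T133A and -6.74 (SE 0.138, adjusted p = 4.96e-20) in KO by edgeR's quasi-likelihood test, so T133A made 18.5% (SE 1.43) of the KO change. MUC5B, the neighbouring mucin, was at 3012 and 2839.9 CPM in WT, 1626 and 1212 CPM in T133A, and 53.3 and 65.4 CPM in KO, with the same order. Both have repeated and related coding sequence, so reads may be split or dropped between them. GUCY2C, the intestinal receptor for guanylin, was at 15.6 and 15.2 CPM in WT, 6.61 and 8.53 CPM in T133A, and 0.121 and 0.108 CPM in KO, where the KO libraries were close to background. REG4, a secreted lectin-like protein, was at 4.97 and 5.63 CPM in WT, 3.33 and 1.88 CPM in T133A, and 0 and 0 CPM in KO. With no count in KO, REG4 was at least 30.9-fold lower there than in WT against 3 counts per library. Its joint call was lost without WT replicate 1, WT replicate 2 or T133A replicate 2 (adjusted p = 0.0677, 0.182 and 0.188 in T133A with WT by edgeR's quasi-likelihood test). RRAD, a small GTPase of muscle and one of the 12 largest risers, was at 0.0585 and 0.167 CPM in WT, 0.862 and 0.294 CPM in T133A, and 13 and 13.7 CPM in KO. T133A stood barely above WT, and the call was lost without WT replicate 1 (adjusted p = 0.268 by the same test), T133A replicate 1 (0.489), KO replicate 1 (0.0568) or KO replicate 2 (0.057).

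**Figure D4:**
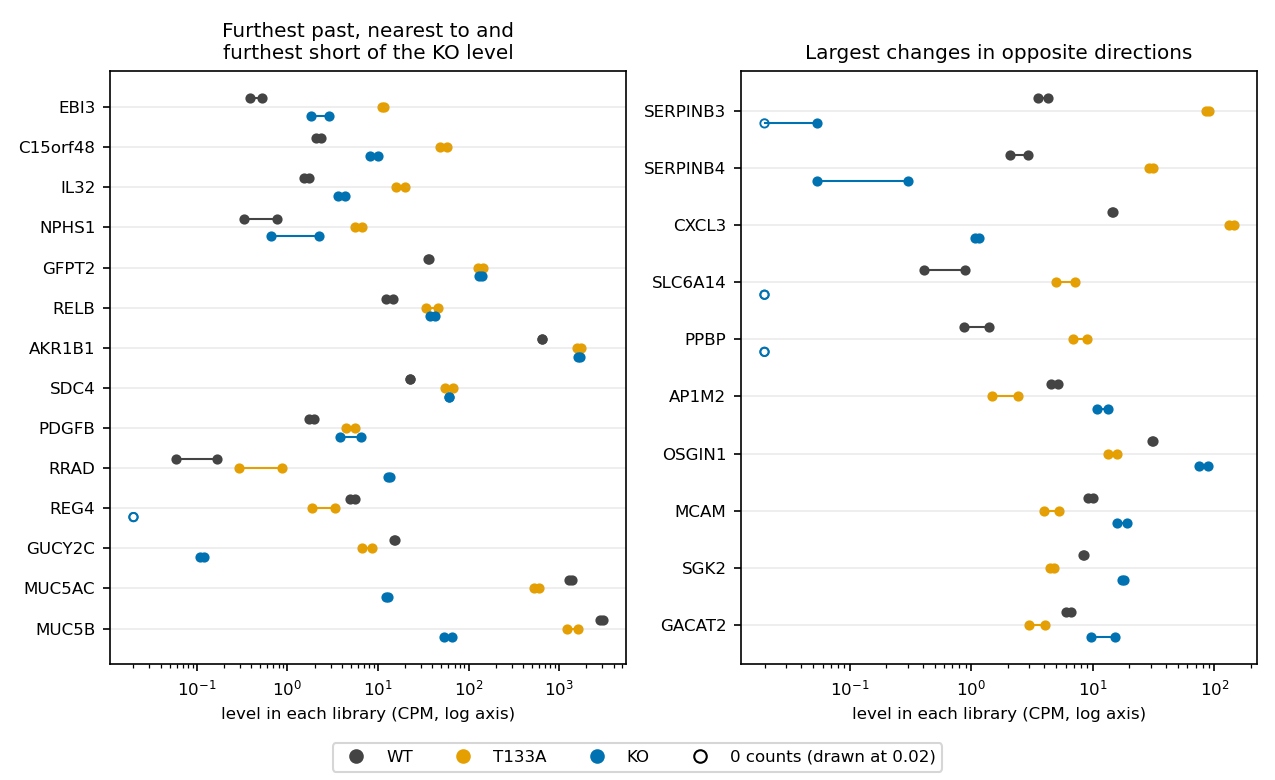
CPM per library on a log axis for genes in which T133A went past KO, reached it or stopped short of it, 1 point per library. C15orf48 and IL32 are highest in T133A, GFPT2 and AKR1B1 are level in T133A and KO, and MUC5AC and GUCY2C fall stepwise from WT through T133A to KO. The right panel shows genes changed in opposite directions, where WT lies between T133A and KO, and libraries with 0 counts are open circles at the left edge.

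NF-kB is a family of transcription factors that switch on cytokines, chemokines and their own inhibitors when cells sense inflammatory signals. Of 26 tested targets of this kind, 10 rose jointly (2.71% of all genes) and 6 were higher in T133A and lower in KO (1.27%). None fell jointly by edgeR's quasi-likelihood test, and the number was also 0 at an unadjusted p under 0.05, by DESeq2 and by limma. The median change of the list was 2.83 in T133A and 0.48 in KO, where the medians over all genes tested were 0.00 in both. The jointly raised members were the subunits NFKB1, NFKB2 and RELB, the inhibitors NFKBIA and NFKBIE, BIRC3, TNFAIP2, CCL2, LIF and IL32. By the direct test of T133A with KO, 6 of these 10 went past KO, 1 stopped short and 3 were not told apart. Among all joint risers 10.6% went past KO. NFKB2 was at 47.9 and 49.9 CPM in WT, 145 and 120.3 CPM in T133A, and 142 and 134 CPM in KO, and the altered groups overlapped. RELB was at 12.2 and 14.8 CPM in WT, 45.5 and 33.7 CPM in T133A, and 42.2 and 37.2 CPM in KO, also with overlap between T133A and KO. CCL2, a monocyte chemoattractant, was at 5.61 and 5.86 CPM in WT, 76.1 and 75.4 CPM in T133A, and 11.8 and 9.96 CPM in KO. Its groups were apart, with T133A highest, and T133A made 405% of the KO change. CCL2 rose by 3.72 (SE 0.148, adjusted p = 2.49e-14) in T133A and 0.92 (SE 0.16, adjusted p = 6.57e-05) in KO by edgeR's quasi-likelihood test. The 6 genes that parted were the chemokines CXCL1, CXCL2, CXCL3, CXCL5, CXCL8 and CCL20. The count of 10 was 8 without WT replicate 1 and 10 with any other library left out. The 10 and the 6 genes are named by the rule that each met, so this split is a description. It does not set chemokines apart, since CCL2, also a chemokine, rose jointly.

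The promoter sequences of several members are shown because they hold the letters of a site for NF-kB, or of a posterior HOX site, close to the start. Sequences are from RefSeq on GRCh38.p14, each the 150 bases before the start annotated there, in the direction of transcription, and capitals mark the match. These starts can differ from the gene spans given elsewhere in the text, which come with the counts. The TNFRSF9 window lies inside the span given for that gene, and the CXCL3 window overlaps its own. TNFRSF9 (chr1:7940840-7940989, reverse strand), SDC4 (chr20:45348425-45348574, reverse strand), IL32 (chr16:3065253-3065402, forward strand) and CXCL3 (chr4:74038690-74038839, reverse strand) match the NF-kB consensus 74, 97, 99 and 79 bases before the start, and represent genes level in T133A and KO, past KO, and opposite in the 2 groups. TM4SF4 (chr3:149474547-149474696, forward strand), a faller described with the surface proteins, holds TTTATGG 76 bases before the start.
TNFRSF9: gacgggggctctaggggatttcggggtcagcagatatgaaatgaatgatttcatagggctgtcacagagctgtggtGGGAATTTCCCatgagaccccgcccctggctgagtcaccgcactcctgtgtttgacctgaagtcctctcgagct
SDC4: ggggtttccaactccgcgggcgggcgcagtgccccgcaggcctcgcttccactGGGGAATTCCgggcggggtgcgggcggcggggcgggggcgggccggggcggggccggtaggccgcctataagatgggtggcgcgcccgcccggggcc
IL32: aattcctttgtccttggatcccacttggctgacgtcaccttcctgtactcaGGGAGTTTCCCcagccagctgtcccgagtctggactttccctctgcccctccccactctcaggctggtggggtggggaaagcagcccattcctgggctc
CXCL3: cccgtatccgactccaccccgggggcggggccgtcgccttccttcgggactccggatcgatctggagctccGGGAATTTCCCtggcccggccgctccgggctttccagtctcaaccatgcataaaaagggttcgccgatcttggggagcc
TM4SF4: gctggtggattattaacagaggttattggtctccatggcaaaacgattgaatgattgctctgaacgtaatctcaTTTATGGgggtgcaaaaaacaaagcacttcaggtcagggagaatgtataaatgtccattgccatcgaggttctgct

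Over the 300-base windows around the start (250 before, 50 after), 10692 of 13538 protein-coding genes tested had a RefSeq entry, among them 332 of 418 risers and 344 of 444 fallers. Searched on both strands, the NF-kB consensus was in 14.2% of riser promoters, 9.30% of faller promoters and 13.1% of all promoters. It was in 20.8% of the 149 promoters of genes higher in T133A and lower in KO. The posterior HOX letters TTTATNG were in 5.72% of riser promoters, 11.3% of faller promoters and 5.96% of all. TTTATAG overlaps the letters of a TATA box, and without it the shares were 3.31%, 8.43% and 4.26%. The AP-1 letters TGANTCA were in 6.63%, 6.40% and 4.70%, and the PBX-HOX letters TGATTTAT in 0.301%, 0.291% and 0.412%. The 149 promoters of genes higher in T133A and lower in KO held TTTATNG in 12.8% and the AP-1 letters in 11.4%. In that set the NF-kB consensus was thus not the only motif above its share of all promoters. Base composition differed beside these shares: the median GC content of the windows was 69.5% in risers, 64% in fallers and 65.3% in all. It was 61.7% in the 149 promoters of genes higher in T133A and lower in KO. A match describes letters in this window and is no evidence of binding.

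Mucus-secreting cells make gel-forming and membrane mucins and the factors that fold and package them. Of 16 tested genes of this list, 10 fell jointly, beside 2.87% of all genes, and TSPAN8 was higher in T133A and lower in KO, a call that was lost by limma, with either WT library left out and with separate WT libraries. The list's median change was -0.55 in T133A and -4.79 in KO. All 10 stopped short of KO by edgeR's quasi-likelihood test of T133A with KO. AGR2, a disulfide isomerase needed for mucin folding (chromosome 7, 16791811 to 16833433, reverse strand), was at 584 and 599.6 CPM in WT, 269.7 and 257 CPM in T133A, and 14.7 and 16.6 CPM in KO. The groups formed 3 separate steps. AGR2 changed by -1.17 (SE 0.1, adjusted p = 1.79e-08) in T133A and -5.24 (SE 0.123, adjusted p = 3.03e-19) in KO by the same test. The other jointly lowered members were MUC5AC, MUC5B, MUC13, MUC16, SPDEF, CREB3L1, FCGBP, GALNT5 and BCAS1. Their number was 6 without WT replicate 1, 8 without WT replicate 2, 9 without T133A replicate 1 and 10 without any of the other 3 libraries.

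Surface proteins were split. Of 21 tested CEACAM, tetraspanin and adhesion genes, 5 fell jointly (ALCAM, TSPAN1, TSPAN13, TM4SF4 and TM4SF20) and L1CAM rose, beside 2.87% and 2.71% of all genes. As many parted: 3 were higher in T133A and lower in KO, and 2 were lower in T133A and higher in KO. TM4SF4, a membrane protein of liver and gut epithelium, was at 83.9 and 85.9 CPM in WT, 47 and 46.6 CPM in T133A, and 9.71 and 8.23 CPM in KO, in 3 steps without overlap, and changed by -0.86 (SE 0.115, adjusted p = 1.43e-05) in T133A and -3.24 (SE 0.133, adjusted p = 6.12e-15) in KO by edgeR's quasi-likelihood test. TM4SF20 was at 586 and 581 CPM in WT, 409 and 422 CPM in T133A, and 1.09 and 1.51 CPM in KO, so that T133A made 5.57% of a very large KO change. The count of 5 was 3 without WT replicate 1 and 3 without T133A replicate 1. L1CAM lost its call without WT replicate 1, WT replicate 2 or T133A replicate 1 (largest adjusted p = 0.178, 0.224 and 0.272 by the same test). Of 21 lung and gut lineage factors, FOXA1, FOXA3 and HNF4G fell jointly and CEBPB rose. FOXA1, a pioneer factor of endodermal epithelium, was at 89.3 and 78.2 CPM in WT, 61.3 and 54.7 CPM in T133A, and 18 and 18.6 CPM in KO, and its call was lost without WT replicate 1 (0.167). The other 3 lost theirs without 1 of several libraries: FOXA3 without WT replicate 1, WT replicate 2 or T133A replicate 2, HNF4G without WT replicate 1, WT replicate 2 or T133A replicate 1, and CEBPB without WT replicate 2 or T133A replicate 1. Of 11 keratins tested, KRT4 fell and KRT7 rose, the latter at 869.7 and 888 CPM in WT, 1402 and 1227 CPM in T133A, and 1926 and 1638 CPM in KO.

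Some matrix, mesenchymal and protease genes rose jointly, and most did not. Of 21 tested mesenchymal genes 5 rose jointly (VIM, SPARC, TNC, LOXL2 and TPM1), beside 2.71% of all genes tested. SPARC, a matricellular protein (chromosome 5, 151661096 to 151687165, reverse strand), was at 14.3 and 11.9 CPM in WT, 46 and 36.9 CPM in T133A, and 85.2 and 115 CPM in KO, with T133A between WT and KO, and rose by 1.66 (SE 0.157, adjusted p = 8.31e-08) in T133A and 2.93 (SE 0.156, adjusted p = 6.89e-13) in KO by edgeR's quasi-likelihood test. TNC, which encodes tenascin-C, was at 5.85 and 6.08 CPM in WT, 33.7 and 30.3 CPM in T133A, and 9.11 and 9.8 CPM in KO, highest in T133A. LOXL2, a lysyl oxidase that crosslinks collagen, was at 129.9 and 135 CPM in WT, 379 and 289 CPM in T133A, and 325 and 306 CPM in KO, with the altered groups overlapping. Of 25 collagen and laminin genes 7 rose jointly, among them COL4A1, COL4A2, COL5A1, COL6A2, LAMA3 and LAMA4, and 4 fell (COL4A3, COL4A4, COL12A1 and LAMB2). COL4A1, the alpha-1 chain of basement membrane collagen, was at 44.4 and 39.3 CPM in WT, 96.2 and 98 CPM in T133A, and 112 and 107 CPM in KO. Its 4 altered libraries were above both WT libraries. COL4A3 and COL4A4 encode the minor chains of the same collagen type, and they moved in the other direction. The 4 fallers were 1 without WT replicate 1 and 2 without WT replicate 2. Of 27 integrin and protease genes 4 rose, among them ITGA5, ADAM19 and PLAU, and this count was 4 with each library left out in turn and 7 after the GC and length correction. PLAU, the urokinase-type plasminogen activator, was at 45 and 46.5 CPM in WT, 109 and 106 CPM in T133A, and 169.97 and 169 CPM in KO. T133A lay between WT and KO without overlap, at 65.2% of the KO change.

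Of 24 tested targets and regulators of TGF-beta and BMP signalling 5 rose jointly, among them PMEPA1, TGFBI, LTBP2 and TGFB1, beside 2.71% of all genes. PMEPA1, a feedback inhibitor of TGF-beta signalling, was at 108 and 109.97 CPM in WT, 384 and 372 CPM in T133A, and 319 and 291 CPM in KO, and TGFBI, a secreted matrix protein, at 695 and 683 CPM in WT, 1876 and 1698 CPM in T133A, and 1299 and 1349.6 CPM in KO. Both were highest in T133A, and T133A with KO passed for both (adjusted p = 0.0149 and 0.00202 by edgeR's quasi-likelihood test). The count of 5 was 3 without WT replicate 2.

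A minority of growth factors and of outputs of EGFR and MAPK signalling rose jointly. Of 18 growth and angiogenic factors 6 rose (VEGFA, PDGFB, ANGPTL4, EREG, TGFA and NRG1) and 2 fell (ANGPT1 and THBS1), beside 2.71% and 2.87% of all genes. EREG, an EGFR ligand (chromosome 4, 74365143 to 74388751, forward strand), was at 49.1 and 45.9 CPM in WT, 108 and 132 CPM in T133A, and 147 and 105 CPM in KO, and its altered groups overlapped. EREG rose by 1.34 (SE 0.136, adjusted p = 3.18e-07) in T133A and 1.41 (SE 0.136, adjusted p = 1.84e-08) in KO by edgeR's quasi-likelihood test. NRG1, a ligand of ERBB3 and ERBB4, was at 33.5 and 37.4 CPM in WT, 67.9 and 72.2 CPM in T133A, and 153 and 136 CPM in KO, in 3 steps. The count of 6 was 4 without WT replicate 1, WT replicate 2 or T133A replicate 1, and 3 among genes with at least 5 CPM. The 2 fallers were 0 without WT replicate 1 and with separate WT libraries, and 1 without WT replicate 2, without T133A replicate 1, by DESeq2 and by limma. Of 24 EGFR and MAPK output genes 7 rose jointly (FOSL1, FOSL2, JUN, PHLDA1, MYC, EPHA2 and CCND1) and FOS fell. FOSL1, an AP-1 subunit, was at 8.94 and 9.37 CPM in WT, 20.01 and 14.9 CPM in T133A, and 105 and 93.5 CPM in KO, where most of the rise belonged to KO (27.1% of it in T133A). The count of 7 was 3 with either WT library left out. FOS had no joint call by DESeq2, by limma, with either WT library left out or without T133A replicate 1.

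Metabolic lists held joint calls in both directions, beside 2.71% of all genes that rose and 2.87% that fell. Of 30 glycolysis and hypoxia genes 5 rose jointly (PFKP, PFKFB3, PGK1, PGAM1 and LDHA), a count that was 2 without either WT replicate 1 or WT replicate 2 and 9 without T133A replicate 2. PFKFB3, which makes the activator of phosphofructokinase, was at 269 and 268 CPM in WT, 432 and 362 CPM in T133A, and 712 and 768 CPM in KO, and PFKP, a phosphofructokinase, at 281 and 293 CPM in WT, 467 and 384 CPM in T133A, and 613 and 596 CPM in KO. T133A was above WT and below KO in both. Of 28 ATF4 and serine synthesis genes 4 rose (ATF3, SHMT2, SLC7A1 and STC2), a count of 2 without WT replicate 1, 6 without KO replicate 1, 7 without T133A replicate 2 and 7 after the GC and length correction. STC2, a secreted glycoprotein of stress responses, was at 7.07 and 7.47 CPM in WT, 18.6 and 18.1 CPM in T133A, and 102 and 101 CPM in KO, with T133A making 35.1% of the KO change. PLIN2, which coats lipid droplets, was at 38.1 and 44.4 CPM in WT, 101 and 81 CPM in T133A, and 96.2 and 108 CPM in KO, higher in all 4 altered libraries. Of 21 drug and alcohol metabolism enzymes 5 fell (CYP4F3, CYP4F12, UGT2B15, ADH1C and ALDH3B1) and ALDH1A3 rose. Of 28 NRF2 targets and aldo-keto reductases 6 fell (SLC7A11, ME1, AKR1B10, AKR1C2, ABCC2 and UGDH) and AKR1B1 rose, but the count of fallers was 0 without WT replicate 1, 1 without WT replicate 2 and 9 without KO replicate 2. Of 25 cholesterol synthesis genes 3 fell, a count of 1 without T133A replicate 1, 5 without KO replicate 1 and 8 without KO replicate 2. HMGCS1, the synthase that makes HMG-CoA, was at 87.1 and 83.6 CPM in WT, 51.9 and 56.7 CPM in T133A, and 55.3 and 65.3 CPM in KO, and its altered groups overlapped.

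**Figure D5:**
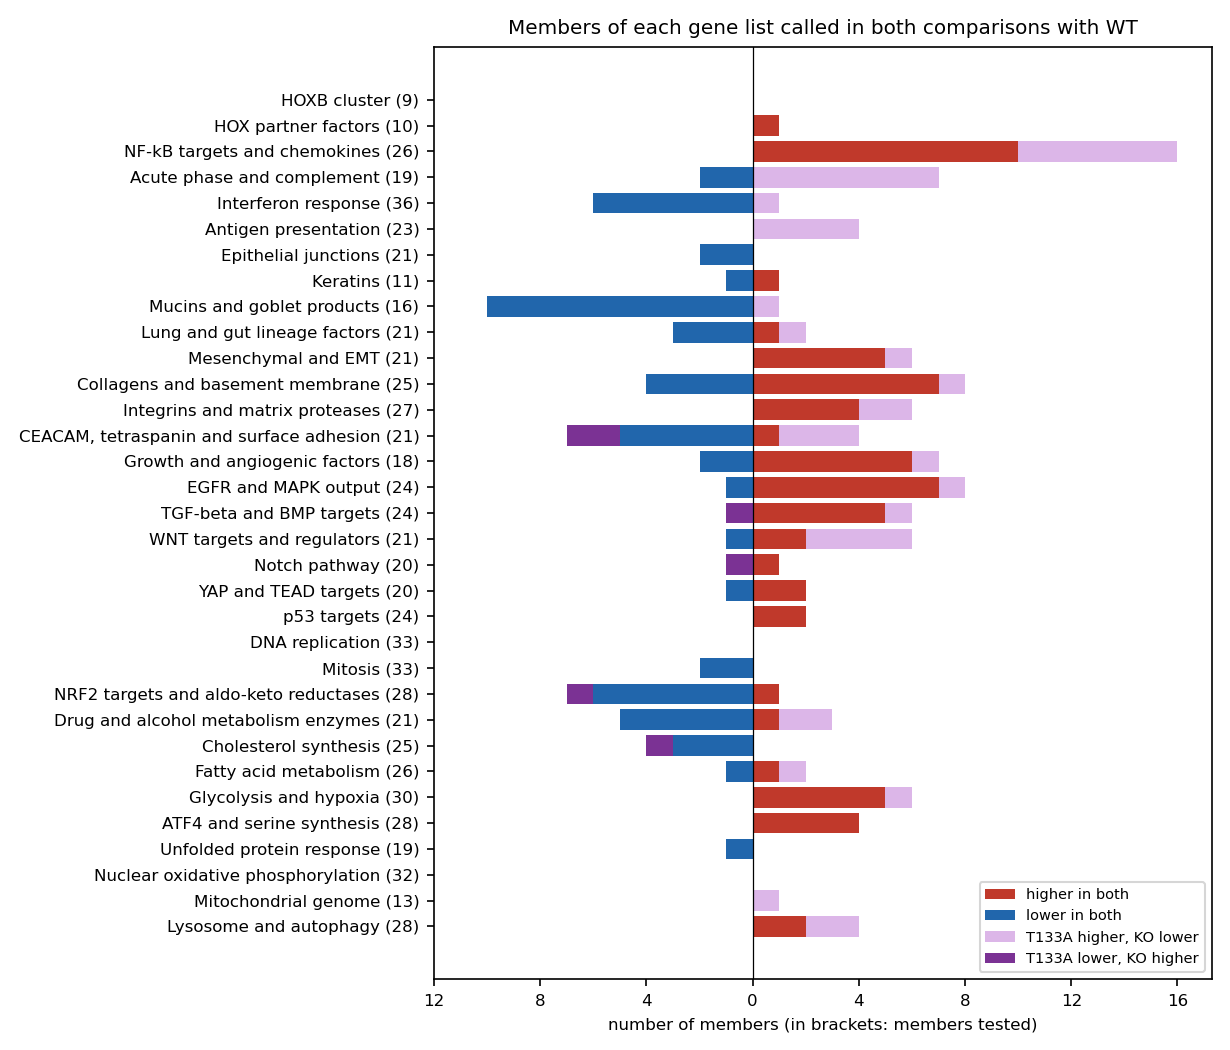
Number of genes per list that rose (bars to the right) or fell (bars to the left) jointly in T133A and KO, with those called in opposite directions stacked on the side of the T133A change. NF-kB targets hold 10 joint risers and 6 opposite genes, and mucins and goblet products 10 joint fallers.

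Interferon-response genes were lower in the mean for 33 of 36 tested, where 16.3% of all genes were. KO with WT called 34 of them lower (23% of all genes), T133A with WT called 6 lower and 3 higher (3.97% and 5.58%), and T133A with KO called all 36 higher in T133A (20.3%). The 6 that fell jointly were IFI44, IFI44L, DDX60, XAF1, SAMD9L and PARP14. IFI44L was at 149.7 and 144 CPM in WT, 90.3 and 104 CPM in T133A, and 22.4 and 18.8 CPM in KO, with T133A nearer to WT than to KO. IFI44L changed by -0.60 (SE 0.111, adjusted p = 8.19e-04) in T133A and -2.83 (SE 0.123, adjusted p = 1.75e-14) in KO by edgeR's quasi-likelihood test. XAF1, a proapoptotic interferon target, was at 41.3 and 39.1 CPM in WT, 22.8 and 27.5 CPM in T133A, and 3.34 and 2.21 CPM in KO, in the same order. The count of 6 was 3 without WT replicate 1, 4 without WT replicate 2 and 9 without T133A replicate 2. It was 11 with library size alone in place of TMM and 12 after the GC and length correction.

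Complement genes were split. Of 19 tested acute-phase and complement genes 2 fell jointly, among them C5, and 7 (LCN2, C3, CFB, C1R, C1S, CD55 and SLPI) were higher in T133A and lower in KO, beside 2.87% and 1.27% of all genes. C5, the source of the terminal complement complex, was at 72.7 and 69.9 CPM in WT, 31.9 and 38.6 CPM in T133A, and 10.1 and 12.2 CPM in KO. The 3 groups were apart, with T133A between WT and KO.

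Other lists had few joint members. None of the 9 tested genes of the HOXB cluster, 33 of DNA replication, 32 of nuclear oxidative phosphorylation, 13 of the mitochondrial genome or 23 of antigen presentation moved jointly by edgeR's quasi-likelihood test. DESeq2 and limma also gave 0 for each. At an unadjusted p under 0.05, 2 HOXB genes and 1 antigen presentation gene were jointly lower. At that limit 2 replication genes and 1 oxidative phosphorylation gene were higher, with 0 of the mitochondrial genome. After the GC and length correction 2 HOXB genes and 1 antigen presentation gene fell jointly, and 1 replication gene rose. Without the low-count filter 1 HOXB gene fell. Joint members also appeared in the HOXB list without T133A replicate 1. They appeared in the replication and oxidative phosphorylation lists without T133A replicate 2. KO with WT called 9 HOXB genes lower, 22 replication genes higher and 13 oxidative phosphorylation genes higher, beside 23% of all genes lower and 23.6% higher, where T133A with WT called 0, 0 and 1 (lower). At an unadjusted p under 0.05, T133A with WT gave 2 HOXB genes lower, and 2 replication genes higher and 2 lower. T133A with KO called 7 of the 9 HOXB genes higher in T133A, beside 20.3% of all genes. It called 24 of the 33 replication genes lower, beside 19.6%. The HOXB counts include HOXB9 itself, whose level the design altered. KO with WT called 16 of the 23 antigen presentation genes lower and 2 higher. It called 10 of the 13 genes of the mitochondrial genome lower and 1 higher. In these 2 lists, 4 and 1 genes were higher in T133A and lower in KO, beside 1.27% of all genes. These counts were 3 and 0 with library size alone and 9 and 5 after the GC and length correction. They also changed when single libraries were left out. Of 33 mitosis genes, ASPM and CENPE fell jointly, beside 2.87% of all genes. Most of this list did not move jointly. KO with WT called 17 of the 33 higher and 2 lower, beside 23.6% and 23% of all genes. T133A with WT called 0 higher and 7 lower, beside 5.58% and 3.97%. T133A with KO called 25 lower in T133A, beside 19.6%. ASPM, a spindle pole protein, was at 128 and 120.3 CPM in WT, 72.3 and 93.7 CPM in T133A, and 83.6 and 65.2 CPM in KO. CENPE lost its call without WT replicate 1 (0.0636) and after the GC and length correction (0.525). Of 10 HOX partner factors, the TALE homeobox gene TGIF2 rose, at 9.64 and 9.65 CPM in WT, 17.5 and 16.8 CPM in T133A, and 16.4 and 17.2 CPM in KO, with T133A and KO overlapping. Of 20 Notch pathway genes JAG1, a ligand, rose, at 43 and 45.2 CPM in WT, 86.5 and 80.4 CPM in T133A, and 103 and 105 CPM in KO. Of 21 WNT genes LGR4, an R-spondin receptor, fell, and TCF7 and MYC rose. LGR4 was at 404 and 383 CPM in WT, 224 and 247 CPM in T133A, and 189 and 182 CPM in KO. TCF7 lost its call without WT replicate 1 or KO replicate 2. Beside the HOX partner, Notch and WNT lists, 2.71% of all genes rose and 2.87% fell jointly. Of the WNT genes, 4 were higher in T133A and lower in KO (1.27% of all genes), and 3 by DESeq2 and by limma. Of the Notch genes, 1 was lower in T133A and higher in KO (0.177%).

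The mean hides genes that the 2 alterations moved apart. T133A was higher and KO lower than WT for 207 genes (1.27% of those tested), and T133A was lower and KO higher for 29 (0.177%). Of these, 87 and 4 were still called in the mean. CXCL3, a neutrophil chemokine (chromosome 4, 74036589 to 74038807, reverse strand), was at 14.6 and 14.4 CPM in WT, 144 and 131 CPM in T133A, and 1.15 and 1.08 CPM in KO. WT lay between the altered groups, which did not overlap. CXCL3 changed by 3.24 (SE 0.125, adjusted p = 1.31e-14) in T133A and -3.70 (SE 0.196, adjusted p = 6.14e-13) in KO by edgeR's quasi-likelihood test, and the mean differed from WT by only -0.23. CXCL1, CXCL2 and CXCL3 are near-identical copies, so their separate counts are uncertain. SERPINB3, a squamous serpin, was at 4.27 and 3.57 CPM in WT, 90.7 and 85.8 CPM in T133A, and 0 and 0.0538 CPM in KO. With 1 count in KO, WT was 137-fold above it (95% counting interval 24.2 to 5452). SERPINB4, its near-identical neighbour, was at 2.1 and 2.96 CPM in WT, 29.1 and 31.5 CPM in T133A, and 0.304 and 0.0538 CPM in KO, and reads may be split between them. SLC6A14, an amino acid transporter, was at 0.409 and 0.892 CPM in WT, 5 and 7.17 CPM in T133A, and 0 and 0 CPM in KO, and PPBP, a platelet chemokine, at 0.877 and 1.39 CPM in WT, 8.91 and 6.94 CPM in T133A, and 0 and 0 CPM in KO. Against 3 counts per library, WT was at least 3.79-fold higher (SLC6A14) and at least 6.61-fold higher (PPBP) than KO.

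In the other direction the changes were smaller. OSGIN1, an oxidative stress-induced growth inhibitor, was at 31.3 and 30.7 CPM in WT, 15.7 and 13.2 CPM in T133A, and 75.2 and 87.8 CPM in KO. AP1M2, an epithelial clathrin adaptor subunit, was at 4.5 and 5.13 CPM in WT, 1.49 and 2.41 CPM in T133A, and 10.8 and 13.3 CPM in KO. MCAM, an adhesion molecule, was at 10.1 and 9.15 CPM in WT, 5.23 and 4 CPM in T133A, and 19.2 and 15.9 CPM in KO, and SGK2, a kinase, was at 8.3 and 8.53 CPM in WT, 4.83 and 4.47 CPM in T133A, and 17.9 and 17.4 CPM in KO. In all 4 WT lay between T133A below and KO above, without overlap. OSGIN1 changed by -1.10 (SE 0.136, adjusted p = 5.21e-06) in T133A and 1.40 (SE 0.125, adjusted p = 5.18e-09) in KO by edgeR's quasi-likelihood test. The opposite genes of both directions numbered 236, and leaving out WT replicate 1 gave 110 and leaving out WT replicate 2 gave 103.

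A further set was called in the mean and in KO with an adjusted p over 0.5 in T133A with WT by edgeR's quasi-likelihood test. These were 741 of the 2572 genes higher in the mean and 729 of the 2658 lower. The share of all genes tested with such a p was not counted. That T133A lay near WT in the genes described here follows from this choice. CEACAM6, an adhesion molecule of epithelial tumours (chromosome 19, 41750977 to 41772208, forward strand), was at 638 and 629 CPM in WT, 616 and 586 CPM in T133A, and 4.67 and 6.14 CPM in KO. T133A and WT were close and KO was far below. Its log2 fold change was -0.07 (SE 0.103, adjusted p = 0.727) in T133A and -6.86 (SE 0.145, adjusted p = 5.61e-20) in KO by edgeR's quasi-likelihood test, and T133A and KO differed by 6.79. TNFSF15, a cytokine, was at 48.5 and 57.8 CPM in WT, 51.6 and 64.7 CPM in T133A, and 0.607 and 0.484 CPM in KO, and LUM, a matrix proteoglycan, at 21.6 and 20.9 CPM in WT, 20.6 and 25.5 CPM in T133A, and 0.243 and 0.215 CPM in KO. KIRREL3, a synaptic adhesion molecule, was at 1.05 and 1.78 CPM in WT, 1.38 and 1.41 CPM in T133A, and 14.1 and 13.8 CPM in KO, the highest levels being in KO. KLHL4 and CALB2, the latter a calcium-binding protein, had the same order. The mean of the altered groups differed from WT by -3.47 for CEACAM6, between the values of T133A and KO.

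Markers of other cell types were low. Of 8 fibroblast markers 5 were tested with no joint call, of 8 haematopoietic markers 2 were tested and ITGAM rose, and of 6 endothelial and 5 alveolar markers 1 each was tested. The 3 groups of markers without a joint call by edgeR's quasi-likelihood test also had 0 by DESeq2 and limma, and at an unadjusted p under 0.05 only 1 fibroblast marker higher and 1 lower. The summed level of the haematopoietic markers was 9.70 to 13.3 CPM in WT, 14.2 to 17.6 CPM in T133A and 11.2 to 15.98 CPM in KO. The fibroblast markers summed to 42.7 to 43.1 CPM in WT, 42.9 to 43.1 CPM in T133A and 14.2 to 14.4 CPM in KO. ITGAM was at 1.46 and 1.17 CPM in WT, 4.31 and 2.65 CPM in T133A, and 5.58 and 5.01 CPM in KO, and its joint call was lost without T133A replicate 1 (largest adjusted p = 0.0962 by edgeR's quasi-likelihood test) and in 1 assignment of separate WT libraries (0.0507).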

How the data were processed

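The authors deposited 1 file per library, with counts of reads and FPKM for 58735 genes. All results come from the counts, which the authors left unnormalized. The FPKM values deposited by the authors were read only to check the counts. Per the submitters' processing notes the tools were HISAT2 2.0.5 and featureCounts 1.5.0 with GRCh38. Strand setting and annotation release: not given in the sources used here. The 27 gene names turned into dates by a spreadsheet were restored from identifiers.

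One edgeR 4.0.16 quasi-likelihood fit (R 4.3.3; TMM, filterByExpr, robust, group as the only term) covered all 6 libraries and kept 16340 genes (13538 protein coding; biological coefficient of variation 8.96%). Contrasts set the mean of T133A and KO against WT, each of the altered groups against WT, and T133A against KO. P-values were two-sided, with Benjamini-Hochberg adjustment within each contrast and a threshold of 0.05. A positive log2 fold change means higher than WT, or higher in T133A for T133A with KO. Standard errors follow from the F statistic. The percent of the KO change is the ratio of the 2 log2 fold changes, described without a test. A count of 0 allows up to 3 counts per library, 0.160 to 0.184 CPM, and such floors and the intervals cover counting error only. The members and gene lists were chosen with earlier results of these data known.

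Named genes were protein-coding members with at least 5 CPM and at least 1 (log2) in both components, with all 4 altered libraries on 1 side of WT (12 risers, 12 fallers), 5 per position class, 5 opposite genes per direction, 3 carried by KO alone per direction, 3 noncoding RNAs per direction, up to 4 joint members per list or its most abundant gene, and HOXB9. Not every gene that the rule allows is described, and some results are not reported here; other list members are named without values, and the promoters shown were chosen after matches were seen. Alternatives were RLE factors, library size only, DESeq2 1.42.0, limma-trend (limma 3.58.1, prior count 2), no low-count filter, at least 5 CPM, a threshold of 0.01, a block for the replicate number, leaving out each library (the lone library left in its group is assumed to vary as other groups do), separate WT libraries for T133A and KO, and a GC and length correction (loess, span 0.5, GENCODE transcripts). On simulated counts the fit was tested before use. Files were read and plots drawn in Python 3.11.15 (numpy 2.4.6; pandas 2.3.3; matplotlib 3.10.9).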

Additional observations from a re-analysis of the deposited data

Results flagged for a closer look

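Of 236 genes called in opposite directions in T133A and KO, 10 are listed here, 5 per direction. They had the largest changes, by the smaller of the 2, among genes with at least 5 CPM. The difference between T133A and KO also passed edgeR's quasi-likelihood test, which this choice made all but certain. The difference (log2, T133A with KO) was 11.27 for SERPINB3, 7.41 for SERPINB4, 6.94 for CXCL3, 9.73 for SLC6A14 and 10.11 for PPBP, all higher in T133A. SERPINB3, SLC6A14 and PPBP had 0 or 1 counts in KO, so their fitted values depend on the prior count and are no bound. It was -2.63 for AP1M2, -2.49 for OSGIN1, -1.92 for MCAM, -1.92 for SGK2 and -1.83 for GACAT2, all lower in T133A. GACAT2, a noncoding RNA for which the strand of the counting is unknown, lost its opposite call without WT replicate 1 (largest adjusted p = 0.117 by edgeR's quasi-likelihood test), T133A replicate 1 (0.195) or KO replicate 2 (0.072), as well as by DESeq2, at a threshold of 0.01 and in 1 assignment of separate WT libraries. The other 9 kept theirs under every alternative that tested them, and PPBP and SLC6A14 were not tested among genes with at least 5 CPM. The groups of 2 libraries are too small for a check on single outlying samples.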

How the results depend on the processing

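The named genes kept the sign of their log2 fold change under every alternative that tested them. This was the mean with WT, or T133A with KO for opposite genes. The order of the median percent of the KO change did turn without T133A replicate 2. It went from 79.4% for risers and 56.2% for fallers to 74.96% and 77.4%, over members called anew in that fit. Joint fallers outnumbered risers, 469 to 442, and risers outnumbered fallers without T133A replicate 2 (850 to 732) and after the GC and length correction (796 to 661), and by smaller margins with limma and DESeq2. At a threshold of 0.01 the calls were 3343 in the mean, 831 in T133A with WT, 222 joint risers, 235 joint fallers and 128 opposite genes. With separate WT libraries for T133A and KO, the 2 assignments gave 865 and 792 calls in T133A with WT, 193 and 183 joint risers, 258 and 234 joint fallers, 121 and 124 opposite genes, and a median distance of 15.6% and 14.2%. The GC and length correction gave 2602 calls in T133A with WT, 796 joint risers and 444 opposite genes. The cause of these shifts was not tested beyond the smaller number of libraries or the stricter threshold. With 1 library left out, calls ranged from 2587 to 6522 in the mean, from 763 to 2579 in T133A with WT, from 191 to 850 joint risers, from 224 to 732 joint fallers, from 103 to 313 opposite genes and from 16.98% to 22.1% in median distance. KO with WT and T133A with KO stayed within 1.5 times under every alternative. Same-numbered libraries of different groups did not deviate together (correlations -0.05, 0.02 and -0.12), so the numbers are not known to pair samples. With the replicate number as a block there were 4739 calls in the mean, 356 joint risers, 444 joint fallers and 215 opposite genes, and 758 of the 911 members remained. Of the 911, 434 and 404 remained with separate WT libraries, 398 and 451 without WT replicate 1 and 2, 582 and 825 without T133A replicate 1 and 2, 852 and 798 without KO replicate 1 and 2, 731 by DESeq2 and 810 by limma. Of 115 named joint members 79 kept their call under every alternative that tested them, and the filter at 5 CPM kept 90, lost 1 and did not test the rest.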
